A study of Mus musculus with 6 samples.

Results

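Metabotropic glutamate receptors (Grm genes) and the synaptic adhesion genes Elfn1 and Elfn2, whose proteins bind some of these receptors across the synaptic cleft, were followed in ribosome-bound RNA of mouse parvalbumin neurons with and without Fxr1. The set held 8 genes, chosen by symbol, of 23306 rows in the count table: Grm5 (group I), Grm2 and Grm3 (group II), Grm4, Grm7 and Grm8 (group III), Elfn1 and Elfn2. All 8 had a row and all 8 passed the filter on low counts. Grm6, also of group III, is described beside them.

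The series compared male C57BL6 mice with an Fxr1 conditional knockout (cKO) in PV-Cre animals with wild type mice, in frontal cortex, at an age that the labels do not give. Fxr1 belongs to the fragile X gene family and its protein binds RNA. For every library the labels describe PV-Cre::RiboTag breeding, a cross of Tg(Palvalbumin-cre) with RPL22HA/WT mice, in which Cre switches on a haemagglutinin-tagged Rpl22 and an antibody then recovers tagged ribosomes with the RNA on them. The same parvalbumin driver thus sets both where Fxr1 is lost and which ribosomes are tagged, and any cell in which it was active, also earlier in life, contributes. Of 6 libraries, 3 per genotype, 4 were used: cKO replicates 1 and 3 and wild type replicates 2 and 3. The labels do not say that each library came from its own animal. Every p-value therefore rests on the spread between libraries, part of which may be technical. The model-based tests below estimate that spread partly from all tested genes together, not from each gene alone.

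The libraries held 9696126 to 10301280 counts. Libraries of a genotype were not always the most alike: chi-square per degree of freedom over genes was highest, 6.31, between the cKO libraries and lowest, 3.01, between cKO replicate 3 and wild type replicate 3. Fxr1 measured 17.8 and 18.7 CPM (the usual scaling of a gene's count by the library total) in cKO, against 98.4 and 100.6 CPM in wild type, a log2 fold change of −2.45 (standard error, SE, 0.10; adjusted p = 1.77e-15 by the quasi-likelihood test of edgeR, Benjamini-Hochberg adjusted over 12449 tested genes). Markers of parvalbumin neurons had the highest sum of the marker lists. Their 10 genes summed to 11215 and 11256 CPM in cKO and 11555 and 11692 CPM in wild type. Gad1, a GABA-synthesising enzyme, led this list at between 4048 and 4354 CPM, and Pvalb lay between 241 and 264 CPM. Pvalb was thus below Camk2a of the excitatory neuron list (663 to 723 CPM) and Slc1a2 of the astrocyte list (445 to 522 CPM). Other cells were present: the excitatory neuron list summed to between 993 and 1086 CPM, the astrocyte list to between 632 and 742 CPM and the oligodendrocyte list to between 284 and 406 CPM, with its highest value in cKO replicate 3. The ribosomal RNA precursor Rn45s took 0.711% of counts in cKO replicate 1 and 0.283% to 0.315% in the other libraries.

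Glutamate, the main excitatory transmitter, acts on metabotropic receptors that signal through G proteins. Group I receptors sit mostly at the edge of the postsynaptic membrane and couple to Gq, phospholipase C and calcium release. Group II and III receptors couple to Gi/o, lower cyclic AMP and restrain transmitter release, the group III receptor mGluR7 right at the active zone. Elfn1 and Elfn2 are leucine-rich-repeat proteins of the postsynaptic membrane that bind group III receptors on the opposite, presynaptic side. Elfn1 is best known at excitatory synapses onto somatostatin interneurons. A presynaptic receptor transcript and an Elfn transcript read from the same neuron belong to opposite sides of the synapse, while Grm5 and the Elfn genes both act on the postsynaptic side.

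The receptors descend from a common ancestor and share stretches of coding sequence, which bears on whether a read can be assigned to a single gene. In GENCODE M21 coding sequences (mm10), the longest identical run was computed for each of the 28 pairs of the 8 genes. It ranged from 10 to 27 bases, and 3 pairs had a run of at least 25. Grm4 and Grm6 share a longer run, of 35 bases. These 3 pairs are shown with 10 flanking bases on each side, the shared run in capitals:
Grm3 (chr5:9511509-9511535, minus strand, coding bases 2314 to 2340): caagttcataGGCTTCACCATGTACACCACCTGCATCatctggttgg
Grm4 (chr17:27434587-27434613, minus strand, coding bases 2362 to 2388): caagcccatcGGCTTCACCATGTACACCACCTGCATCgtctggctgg
Grm4 (chr17:27434651-27434676, minus strand, coding bases 2299 to 2324): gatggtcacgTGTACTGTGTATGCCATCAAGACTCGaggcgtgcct
Grm7 (chr6:111358937-111358962, plus strand, coding bases 2308 to 2333): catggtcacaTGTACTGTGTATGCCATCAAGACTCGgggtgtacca
Elfn1 (chr5:139971364-139971388, plus strand, coding bases 122 to 146): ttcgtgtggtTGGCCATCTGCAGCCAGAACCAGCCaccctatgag
Elfn2 (chr15:78674215-78674239, minus strand, coding bases 107 to 131): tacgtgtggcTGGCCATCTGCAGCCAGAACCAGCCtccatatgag

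Each of these runs lies within a single exon. The receptor runs fall late in the coding sequence, and the Elfn run near its start. The sequences differ on both sides of each run within the 10 bases shown. The sources used here give no read length, and the share of reads that fit several receptors was not computed. Antisense genes overlap exons of Grm2 by 470 bases (Gm28111), of Grm7 by 130 bases (Gm20387) and of Elfn2 by 266 bases (1700041B01Rik). None of these 3 genes has its own row, and no source used here gives the strand setting of the count, so antisense reads cannot be told apart from those of Grm2, Grm7 and Elfn2.

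Levels were set side by side as CPM per kb of annotated exon, since a longer transcript gives more reads. Grm5, a Gq-coupled receptor of group I, stood highest at 28.96 ± 0.974 CPM per kb (SD, n = 4 libraries). Grm3, a Gi/o-coupled receptor that astrocytes also express, followed at 15.1 ± 1.14, and Elfn2 at 8.36 ± 0.381. Grm7, the active-zone receptor, stood at 6.25 ± 0.573 and Elfn1 at 2.08 ± 0.433 CPM per kb. Grm4 (1.30 ± 0.144), Grm2 (0.840 ± 0.157) and Grm8 (0.779 ± 0.0707 CPM per kb) closed the order. The lowest of the 4 libraries for each gene lay above the highest for the next gene in this order, except for Grm2 and Grm8, whose ranges overlapped. Grm2 lay above Grm8 in 3 of 4 libraries by annotated exon. That order depends on the length: Grm8 averaged 2.83 and Grm2 1.57 CPM per kb with the longest coding sequence, and 1.61 and 0.872 CPM per kb with the longest transcript.

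**Figure D1:**
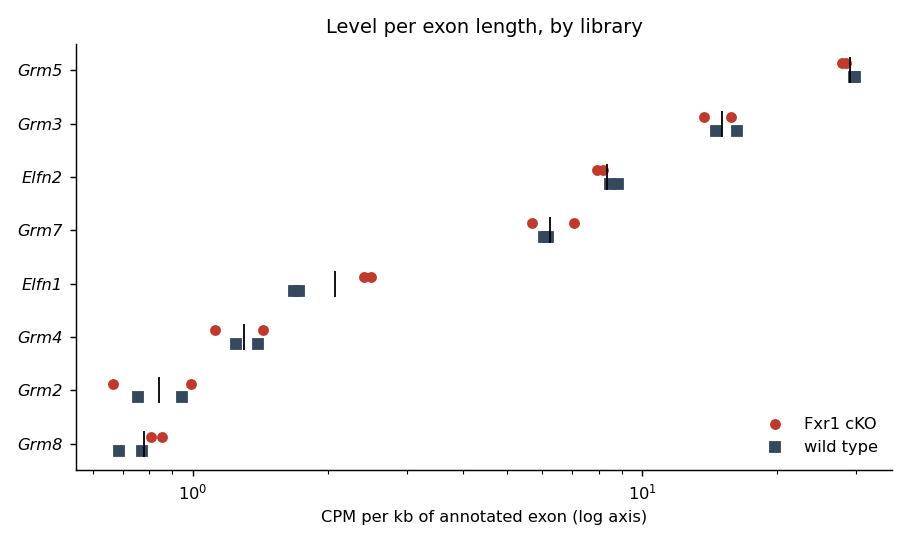
Level of each gene in CPM per kb of annotated exon (log axis) in the 2 Fxr1 cKO libraries (circles) and the 2 wild type libraries (squares), with the mean of all 4 as a bar. Grm5 leads at 28.96 CPM per kb, and Grm2 and Grm8 share the lowest place with overlapping ranges.

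Grm6, known from bipolar cells of the retina, had 1 and 0 counts in cKO and 1 and 2 counts in wild type, too few for a test or a fold. Grm5 made the largest part of the receptor signal of the set. It held 53.6% and 54.3% of the summed level per length of the 6 receptors in cKO and 53.8% and 55.9% in wild type. Group II held 31.6% and 28.04% in cKO and 31.2% and 28.8% in wild type, and group III 14.8% and 17.7% in cKO and 14.9% and 15.2% in wild type. The genotypes overlapped in all 3 shares. These shares depend on the exon length used: with the longest coding sequence in its place Grm5 held 68.4% over all 4 libraries, group II 15.8%, and Elfn2 stood above Grm3.

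Parvalbumin neurons are not the only possible source of these transcripts. Grm3 is also known from astrocytes, whose defining markers were low but present: Aqp4 averaged 11.4, Gja1 7.98 and Aldh1l1 5.28 CPM. The 12 astrocyte markers summed to 632 and 742 CPM in cKO and 688 and 657 CPM in wild type, and none of them was at 0 in all libraries. Grm3 measured 48.0 and 41.9 CPM in cKO and 49.6 and 44.6 CPM in wild type. Most of each sum came from Slc1a2, at 451 and 522 CPM in cKO and 471 and 445 CPM in wild type. The library with the highest astrocyte sum, cKO replicate 3, had the lowest Grm3. Of the low markers named above, Aqp4 and Aldh1l1 were highest in that library and Gja1 was lowest. Somatostatin neurons, where Elfn1 is known to be high, were represented by Sst at 9.73, Grin3a at 9.48 and Crhbp at 34.5 CPM. How much of Grm3 or Elfn1 came from other cells was not tested.

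The comparison of genotypes asked whether ribosome-bound receptor and Elfn transcripts differed when parvalbumin neurons lacked Fxr1. None of the 8 genes passed the test: 0 had an adjusted p under 0.05 by edgeR, while 0.0321% of all tested genes did (4 of 12449; 0.0161% in each direction). The count was also 0 by DESeq2 and by limma voom. At an unadjusted p under 0.05 there was 1 of 8, Elfn1, beside 3.23% of all tested genes. The log2 fold changes were above 0 for 3 genes and below 0 for 5, with a median of −0.04 (all tested genes, −0.0015). The genotypes did not overlap for 4 genes: Grm8 and Elfn1 were higher in both cKO libraries, Grm5 and Elfn2 lower. Over all tested genes the genotypes did not overlap in 30.1% (14.9% higher and 15.2% lower in cKO). An exact permutation test of 2 libraries against 2 cannot give a two-sided p below 0.333, which these 4 genes reached. Fewer cells of a type and less RNA per cell cannot be told apart in such data.

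**Figure D2:**
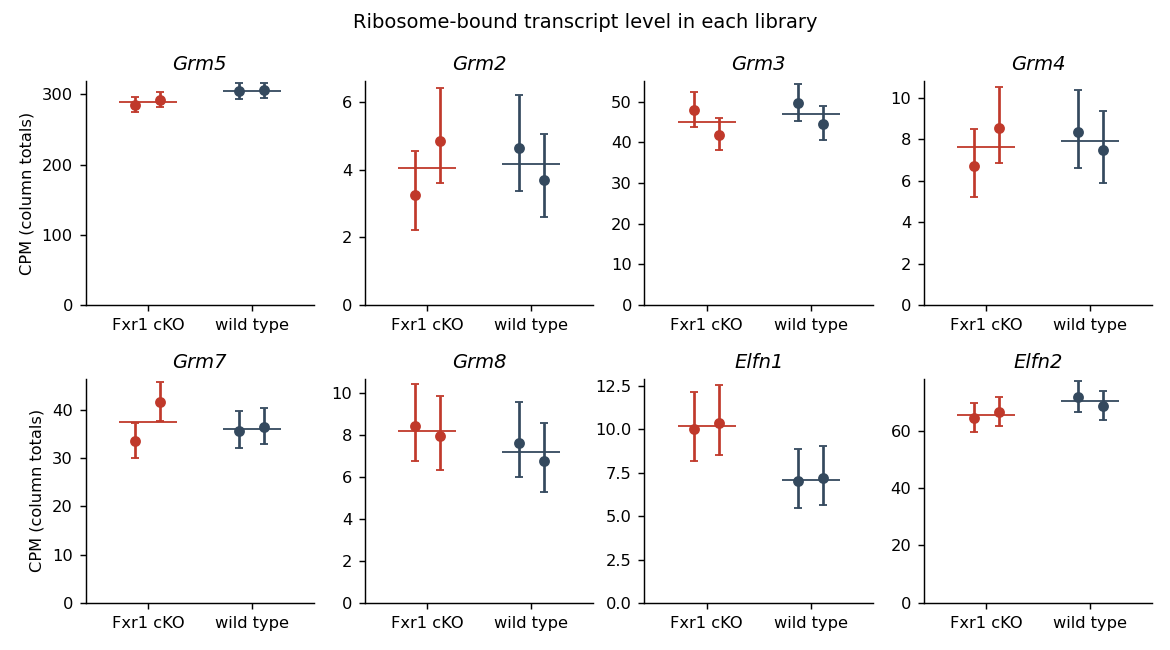
CPM of each gene in the 2 Fxr1 cKO libraries (left) and the 2 wild type libraries (right) on axes that start at 0. Points are libraries, bars their 95% exact Poisson counting intervals and horizontal lines the group means. Elfn1 shows the widest gap relative to its level, at 10.03 and 10.4 CPM in cKO against 7.01 and 7.18 CPM in wild type.

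Grm5 measured 285 and 292 CPM in cKO libraries and 304 and 306 CPM in wild type libraries, from 2896 to 3149 counts. Both cKO values lay below both wild type values, and the gap between the genotypes was wider than the spread within either. The log2 fold change was −0.08 (SE 0.07), and its 95% interval, −0.22 to 0.06, spans folds of 0.858 to 1.04. With the highest depth of the set, Grm5 had the narrowest interval. With a single library left out, its log2 fold change ran from −0.09 to −0.07. As its genotypes did not overlap, the sign could hardly turn in these fits.

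In group II, the log2 fold change of Grm3 was −0.06 (SE 0.11, 95% interval −0.28 to 0.15). Its CPM values, given above, overlapped between the genotypes. Grm2, best known as a presynaptic autoreceptor, was near the limit of the data, with 33 and 50 counts in cKO and 45 and 38 in wild type. These are 3.25 and 4.86 CPM in cKO and 4.64 and 3.69 CPM in wild type. The cKO libraries lay outside the wild type pair on either side. The 95% interval of its fold ran from 0.654 to 1.46, so folds within these bounds could not be told apart with these libraries.

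In group III, Grm7 measured 33.5 and 41.5 CPM in cKO and 35.7 and 36.4 CPM in wild type. The cKO libraries stood on both sides of the wild type pair, and the log2 fold change of 0.06 (SE 0.11) turned to −0.090 without cKO replicate 3. Grm4 measured 6.69 and 8.55 CPM in cKO and 8.35 and 7.47 CPM in wild type, with overlapping genotypes and a log2 fold change of −0.05 (SE 0.21). Grm8, a presynaptic receptor of high glutamate affinity, measured 8.46 and 7.97 CPM in cKO and 7.63 and 6.80 CPM in wild type. Both cKO libraries of Grm8 were the higher ones, by less than the width of a single library's counting interval. Its log2 fold change was 0.19 (SE 0.20, 95% interval −0.23 to 0.60; unadjusted p = 0.356 by edgeR).

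Elfn1 had the largest log2 fold change of the set in size. Its libraries held 102 and 107 counts in cKO and 68 and 74 counts in wild type, or 10.03 and 10.4 CPM in cKO and 7.01 and 7.18 CPM in wild type. Libraries of a genotype lay close together, and the lowest cKO value stood above the highest wild type value. The mean was 10.2 ± 0.260 CPM in cKO and 7.10 ± 0.121 CPM in wild type (SD, n = 2 each). The log2 fold change was 0.52 (SE 0.19, 95% interval 0.13 to 0.92), a fold of 1.44, with an unadjusted p of 0.0109 and an adjusted p of 0.998 by edgeR. Of all tested genes, 0.731% had a smaller unadjusted p. The difference therefore does not pass over the whole table. Its log2 fold change stayed between 0.50 and 0.55 under all 11 alternatives. They reuse the same counts, and with genotypes that did not overlap the sign could hardly turn. By the DESeq2 Wald test the SE was larger, 0.31, for a log2 fold change of 0.53. Counting error alone spans 8.18 to 12.2 CPM in cKO replicate 1 and 5.64 to 9.02 CPM in wild type replicate 3 (95% exact Poisson intervals), and these overlap.

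Elfn2, the second partner, measured 64.5 and 66.4 CPM in cKO and 71.7 and 68.7 CPM in wild type. Both cKO libraries were lower than both wild type libraries, with a log2 fold change of −0.10 (SE 0.09, 95% interval −0.28 to 0.08). Elfn1 took 23.2% and 23.3% of the summed level per length of the Elfn genes in cKO, against 16.0% and 16.9% in wild type. That share has the same counts behind it as the values above and is no separate observation. With the longest coding sequence as length, the share over all 4 libraries was 11.3%, against 19.9% with annotated exons.

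**Figure D3:**
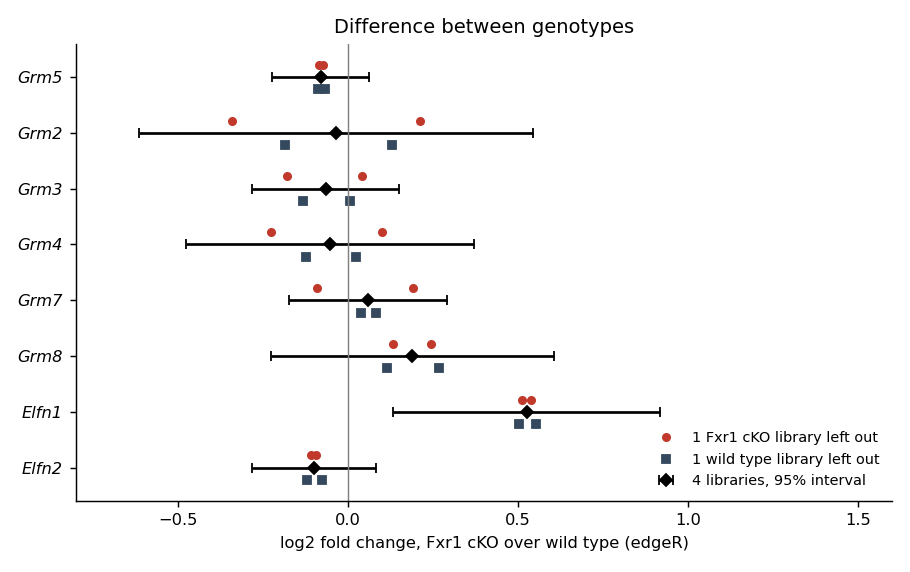
Log2 fold change of Fxr1 cKO over wild type by edgeR with its 95% interval (diamonds), and the value with a single library left out (circles, a cKO library; squares, a wild type library). Elfn1 is the 1 gene whose edgeR interval, not adjusted for the number of genes tested, lies above 0. Grm2, Grm3, Grm4 and Grm7 change sign with the library left out.

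Markers of somatostatin neurons, the cells best known for Elfn1, summed to 60.5 and 78.0 CPM in cKO and 71.5 and 81.3 CPM in wild type. The genotypes overlapped, and of 4 tested markers of this list 0 passed, 1 lay above 0 and 3 below. Sst measured 9.25 and 10.6 CPM in cKO and 8.97 and 10.1 CPM in wild type, and Chodl had a count in a single library, of wild type. The marker with the smallest p was Nos1, the neuronal nitric oxide synthase gene, at 15.6 and 15.6 CPM in cKO and 22.2 and 20.7 CPM in wild type. Both cKO libraries were lower, with a log2 fold change of −0.45 (SE 0.14, unadjusted p = 0.00313 and adjusted p = 0.998 by edgeR). Elfn1 was higher in both cKO libraries, and how it relates to these markers was not tested. Markers of VIP and other interneurons from the caudal eminence summed to 181 and 205 CPM in cKO and 211 and 211 CPM in wild type. Most of each sum came from Reln (125 and 137 CPM in cKO, 146 and 142 CPM in wild type), while Vip averaged 1.12 CPM. Of 6 tested markers, 2 lay above 0 and 4 below. The genotypes did not overlap in 1 that was higher, Lamp5, and 1 that was lower, Reln, beside 14.9% and 15.2% of all tested genes. The sums of this list and of the parvalbumin list were lower in both cKO libraries, as were Grm5 and Elfn2; their part in those values was not tested. Of 8 tested markers of striatal projection neurons, in which Grm5 is also abundant, 6 were higher in both cKO libraries than in both wild type libraries, beside 14.9% of all tested genes. Of the 8, 4 had an unadjusted p under 0.05 by edgeR (Drd2, Adora2a, Ppp1r1b and Penk, all higher in cKO), beside 3.23% of all tested genes. The dopamine receptor gene Drd2 measured 1.57 and 2.33 CPM in cKO and 0.928 and 1.07 CPM in wild type (log2 fold change 0.96, SE 0.46). The sums of all 8 markers, 216 and 246 CPM in cKO and 233 and 236 CPM in wild type, overlapped. Most of each sum came from the pair of genes outside these 6, whose genotypes overlapped: Pde10a (111 and 127 CPM in cKO, 129.6 and 122 CPM in wild type) and Tac1, which is also on the parvalbumin list (34.4 and 49.0 CPM in cKO, 43.6 and 55.5 CPM in wild type). How much of Grm5 came from such cells was not tested. No member of the 10 marker lists passed the test.

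The patterns across libraries most like that of Elfn1 were sought among 8430 tested genes of at least 10 CPM, by Pearson correlation of log2 CPM over the 4 libraries. Tppp and Cep68 were among the 3 highest, and 40 genes, these included, had an r above 0.99. With 4 points that share library and depth this is a description alone. Tppp, which encodes a tubulin-binding protein of oligodendrocytes, measured 287 and 293 CPM in cKO and 263 and 262 CPM in wild type.

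Genes that work with the receptors were read from 4 lists, and 0 of their 95 tested members passed by edgeR, DESeq2 or limma voom. At an unadjusted p under 0.05 by edgeR there were 0 as well. The Gq side held 26 tested genes, from Homer scaffolds to phospholipase C and IP3 receptors: 16 lay above 0 and 10 below, with a median log2 fold change of 0.02. Homer1, the scaffold that tethers group I receptors, measured 136 and 140 CPM in cKO and 127 and 124 CPM in wild type (log2 fold change 0.13, SE 0.08). Shank3, the scaffold that binds Homer proteins, measured 134 and 153 CPM in cKO and 133 and 123 CPM in wild type. Its log2 fold change was 0.16 (SE 0.08, unadjusted p = 0.0569 by edgeR). Homer3 lay at 1.57 and 1.75 CPM in cKO and 1.03 and 1.16 CPM in wild type, a log2 fold change of 0.59 with an SE of 0.46.

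The Gi/o side, with G-protein subunits, adenylyl cyclases and receptor partners, held 34 tested genes, 20 above 0 and 14 below, with a median of 0.02. The inhibitory G-protein gene Gnai2 measured 30.7 and 32.9 CPM in cKO and 28.7 and 25.7 CPM in wild type. Its log2 fold change was 0.23 (SE 0.12). The adenylyl cyclase gene Adcy3 measured 75.5 and 78.7 CPM in cKO and 84.3 and 87.3 CPM in wild type (−0.15, SE 0.09). Gng7, a G-protein gamma subunit, stood at 0.17 (SE 0.09) and the PDZ protein gene Grip2 at 0.12 (SE 0.08). In each of these 4 genes, named for their small p, the genotypes did not overlap, and none passed. Of all 34, the genotypes did not overlap in 8 that were higher and 5 that were lower in cKO, beside 14.9% and 15.2% of all tested genes. Pick1, whose protein binds the tail of mGluR7, measured 35.8 and 38.1 CPM in cKO and 34.8 and 38.6 CPM in wild type, with a log2 fold change of 0.01 (SE 0.11).

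Of 7 genes of receptor desensitization (kinases and arrestins), 3 lay above 0 and 4 below, with a median of −0.0002. By log2 fold change the kinase gene Grk5 stood at −0.22 (SE 0.16), the arrestin gene Arrb1 at 0.11 (SE 0.09), Grk6 at −0.09 (SE 0.10) and Adrbk1 at −0.07 (SE 0.08). Leucine-rich-repeat adhesion genes, the wider class to which the Elfn genes belong, held 28 tested genes, 8 above 0 and 20 below, with a median of −0.07. Their sums overlapped between the genotypes, at 1725 and 1875 CPM in cKO and 1836 and 1911 CPM in wild type, with cKO replicate 1 the lowest. The genotypes did not overlap for 6 of them, all lower in cKO, beside 15.2% of all tested genes. Lingo2 measured 13.97 and 15.4 CPM in cKO and 17.0 and 18.3 CPM in wild type (log2 fold change −0.27, SE 0.15). Lrrc4c, a netrin-G ligand gene, stood at −0.18 (SE 0.10), Lrrtm2, a neurexin ligand gene, at −0.13 (SE 0.09) and Lrrc4b at −0.10 (SE 0.07).

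**Figure D4:**
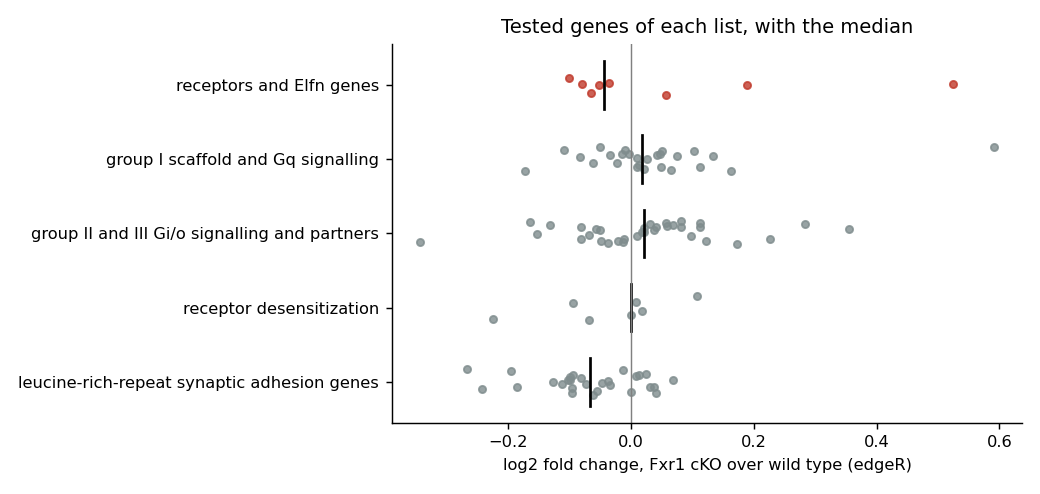
Log2 fold change of Fxr1 cKO over wild type for the tested genes of each list (points, spread vertically for view) with the list's median (bar). Medians lie between −0.07 for leucine-rich-repeat adhesion genes and 0.02 for both signalling lists, and no point passed the test.

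Grm7 lies on chromosome 6 (110645581 to 111567230, mm10), at higher coordinates than a run of adhesion genes that includes Chl1. Of 97 tested genes within 10 Mb of Grm7, 1 passed by edgeR, Chl1, which lies 6.90 Mb away. It rose to 135 and 173 CPM in cKO, against 93.96 and 86.4 CPM in wild type (adjusted p = 0.00134 by edgeR, but 0.0563 with library totals in place of TMM). The contactin genes around it did not pass: by log2 fold change Cntn3 (8.07 Mb away) stood at 0.46 (SE 0.13), Cntn6 (5.78 Mb) at 0.47 (SE 0.10) and Cntn4 (3.95 Mb) at 1.22 (SE 0.39). In all 4 of these genes both cKO libraries lay above both wild type libraries, beside 14.9% of all tested genes. Of the 97 genes in the window, the genotypes did not overlap in 19 that were higher and 17 that were lower in cKO. Over all tested genes these shares were 14.9% and 15.2%. The highest library was cKO replicate 3 for these 4 genes and for Grm7. Grm7 was lowest in cKO replicate 1, however, and its genotypes overlapped. Between Cntn4 and Grm7 lie 9 tested genes, 6 above 0 and 3 below, of which 0 passed. Among them the IP3 receptor gene Itpr1, 2.09 Mb from Grm7, measured 1333 and 1369 CPM in cKO and 1356 and 1322 CPM in wild type. The whole window had 49 genes above 0 and 48 below, with a median of 0.0018. At an unadjusted p under 0.05 by edgeR there were 6 of the 97 genes, beside 3.23% of all tested genes: Chl1, Cntn3, Cntn6, Zfp248 (log2 fold change 0.31), Iqsec3 (0.19) and Ttll3 (−0.68). Grm8 is on the same chromosome at 27275119 to 28135178, far from this window.

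**Figure D5:**
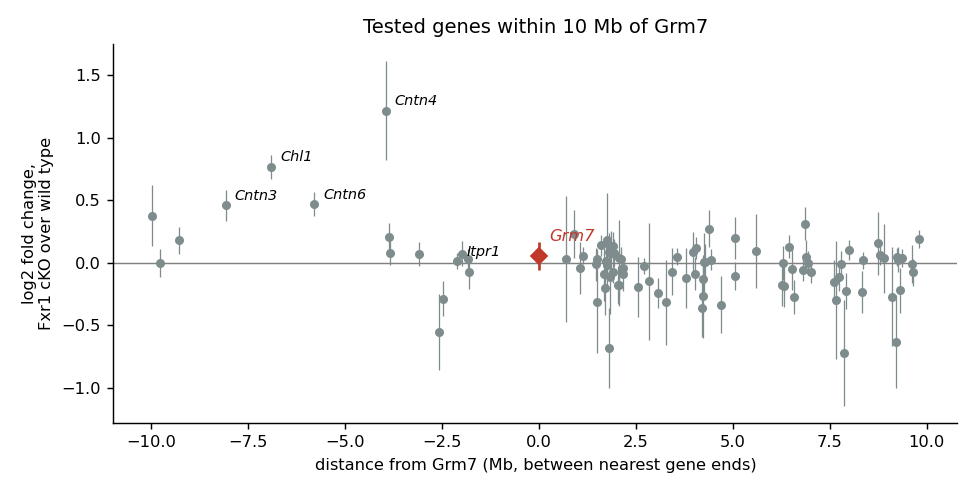
Log2 fold change of Fxr1 cKO over wild type, with its SE, of the 97 tested genes within 10 Mb of Grm7 against their distance from it in Mb (negative, before its start). Chl1 and 3 contactin genes stand between 0.46 and 1.22 at 3.95 to 8.07 Mb before Grm7 (diamond), which itself is at 0.06.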

How the data were processed

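The authors deposited raw read counts for each gene symbol, as whole numbers without normalization. The submitters' processing notes name STAR and the mm10 build. Libraries were made with the SMARTer Stranded kit for total RNA, per the labels' protocols. No source used here names the counting tool, annotation or strand setting. Columns enter only if their name is the title of exactly 1 sample, which left 4 libraries. Another 2 columns, which share the title of wild type replicate 1, were not used, so the design is 2 against 2 instead of 3 against 3. Of 23306 rows, 27 had symbols turned into dates.

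The whole table was fitted with edgeR 4.0.16 (R 4.3.3): TMM normalization, filterByExpr (12449 genes), robust quasi-likelihood fits of cKO against wild type. Calls are at 0.05 after Benjamini-Hochberg adjustment. CPM values use column totals, and overlap between genotypes was read from TMM-scaled CPM. The libraries differed by more than sampling noise in every pair. Exon lengths and coordinates are from GENCODE M21 (mm10) by symbol. Counting intervals are 95% exact Poisson and cover counting error only.

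The 8 genes, the 4 partner lists and the marker lists were chosen with earlier results of these data known. All 8 genes are named, with the 4 genes of smallest unadjusted p in each partner list, the 3 genes most like Elfn1 and leading and defining genes of marker lists; Pick1 and Itpr1 were named after their values were seen. Some genes that this rule names are not reported here. Alternatives were library totals, DESeq2 size factors, the Wald test of DESeq2 1.42.0, voom of limma 3.58.1, other filters, non-robust fits, other gene lengths and leaving out each library.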

Additional observations from a re-analysis of the deposited data

How the results depend on the processing

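None of the 8 genes and none of the partner genes passed under any of the 11 alternatives to the test; adjusted p-values of the 8 genes were at least 0.799 throughout. Grm5, Grm8, Elfn1 and Elfn2 kept their direction in all of them. The genotypes of these genes did not overlap, so leaving out a library could hardly turn it, and the other settings reuse the same counts. With each library left out in turn, log2 fold changes ran from −0.34 to 0.21 for Grm2, −0.18 to 0.043 for Grm3, −0.23 to 0.10 for Grm4 and −0.090 to 0.19 for Grm7. Signs turned without cKO replicate 1 (Grm2, Grm4), cKO replicate 3 (Grm3, Grm7) and wild type replicate 2 (Grm2, Grm3, Grm4). Each such fit leaves a genotype with a lone library, which is assumed to vary like the other genotype. Fxr1 stayed between −2.47 and −2.42. Over all genes, 4 passed, 2 in each direction. Library totals gave 1 (0 higher, 1 lower), the DESeq2 Wald test 2 (1 in each direction) and no filter on low counts 13 (6 higher, 7 lower). The number lower was 1 under limma voom, under at least 5 CPM in 3 libraries and under non-robust fits. Without single libraries the count was 9 to 48, with 4 to 21 higher and 5 to 37 lower. With the longest coding sequence as gene length, 4 of 8 genes kept their place in the order of levels and Grm5 held 68.4% of the receptor level; with the longest transcript it held 56.8%, against 54.4% with annotated exons. The cause of the changes in counts and signs was not tested. Grm2 was not measured under the filter of at least 5 CPM. No paired analysis was possible because no label numbers the replicates, and accession order pairs nothing. At about 10 CPM or less, as for Grm2, Grm4, Grm8 and Elfn1, counting error limits what 2 libraries per genotype can show.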
